A study of Mus musculus with 7 samples.

Results

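The 10 genes described here encode alcohol dehydrogenases (*Adh1*, *Adh4*, *Adh5* and *Adh7*) and aldehyde dehydrogenases (*Aldh1a1*, *Aldh1a7*, *Aldh2*, *Aldh3a2*, *Aldh1l1* and *Aldh8a1*). They were picked by name from a table of 14819 rows of read counts in mouse primary hepatocytes, and all 10 were present and passed the expression filter, which kept 14779 rows. The choice was made with the comparison of knockout and wild-type cells already in view, so the differences between genotypes of these 10 genes are given as values. Their calls are counted only beside the share of all genes called, and no p-value is attached to them. Hepatocytes, the parenchymal cells of the liver, came from male mice, were freed by collagenase perfusion and were kept overnight in culture without treatment. Cells of 4 WT and 3 WDR6-WKO samples were sequenced, in 7 libraries. WDR6-WKO mice lack exon 2 of *Wdr6* in every tissue, after a CRISPR–Cas9 deletion, so that any other cell type left in the preparation carried the deletion too. WT mice carried no deletion. The labels give neither the age and strain of the donors nor whether each library came from its own mouse, and the p-values below therefore measure only the spread between these libraries.

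The alcohol dehydrogenases of this group are zinc enzymes that oxidize alcohols to aldehydes or ketones with NAD+, and aldehyde dehydrogenases carry the aldehydes on to carboxylic acids. The liver uses them in sequence to clear ethanol, and members of both families also act on retinol and retinaldehyde, on formaldehyde, on fatty aldehydes and on folate and tryptophan intermediates. Some members of both families are typical of differentiated hepatocytes, while others are made in many tissues or mainly outside the liver.

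The libraries held 17816913 to 23668940 counted reads, given below as TMM-scaled CPM, counts relative to a common library total. *Wdr6* itself stood at 44.0 ± 4.03 CPM (mean ± s.d., n = 4) in WT and 2.38 ± 0.179 CPM (n = 3) in WDR6-WKO. *Alb*, the gene of serum albumin, stood at 7366 ± 730 CPM in WT and 6480 ± 363 CPM in WDR6-WKO. Of 12 hepatocyte markers, 5 were lower and none was higher in WDR6-WKO (edgeR, adjusted p under 0.05), and their summed level was 15988 to 18965 CPM across WT libraries and 14411 to 16462 CPM across WDR6-WKO libraries. Of 15 Kupffer cell markers, 4 were higher and none was lower, with sums of 942 to 1050 CPM and 1091 to 1295 CPM. None of the markers of either list was at 0 in its group mean, and the lowest means were those of *Tat* and *Timd4*. Of the other marker lists, the 12 for stellate cells had 2 higher and 1 lower, the 12 for endothelial cells 2 lower, the 6 for cholangiocytes 2 higher, and the 20 for the drift of cultured hepatocytes 3 higher and 2 lower. Over all genes tested, 6.18% were lower and 6.65% were higher. The part of these markers in the results below was not tested, and in bulk RNA fewer cells of a type and less RNA per cell cannot be told apart. WDR6-WKO replicate 3 stood apart from the other libraries of its genotype, with a chi-square of 14.3 and 16.0 per gene against them, where the other pair gave 5.14. Without it, 28.6% of all genes were called (12.8% with it), and of the lists below 6 genes of the ethanol and aldehyde list were called (4 with it), 8 of the retinoid list (6), 9 of the fatty aldehyde list (6), 10 of the folate list (9) and 6 of the kynurenine list (6). Values of the dehydrogenase genes without it are given where their calls differ.

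In WT cells the 10 genes together made up 2567 ± 50.4 CPM, and in WDR6-WKO cells 2510 ± 98.5 CPM. *Aldh1a1* alone supplied 64.0 ± 0.481% of this sum in WT and 67.4 ± 2.22% in WDR6-WKO. The 4 ADH genes added up to 209 ± 4.11 CPM in WT and 172 ± 10.8 CPM in WDR6-WKO, while the 6 ALDH genes added up to 2358 ± 50.2 and 2337 ± 87.7 CPM. By library, the ADH sum was 211, 203, 211 and 210.1 CPM in WT replicates 1 to 4 and 172, 183 and 161 CPM in WDR6-WKO replicates 1 to 3. Every ADH sum in WDR6-WKO lay below every ADH sum in WT, whereas the ALDH sums of the genotypes overlapped.

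For the order of the genes, levels were divided by transcript length and are CPM per kb of the principal transcript in the GENCODE M21 annotation. On this scale *Aldh1a1* came first in WT, at 697 ± 15.9 CPM per kb, 7.78 times the next gene. *Aldh3a2* followed at 89.5 ± 3.46 and *Aldh2* at 86.3 ± 6.42 CPM per kb, and the WT ranges of this pair overlapped, so their order is not settled. *Adh5* stood at 74.5 ± 1.99, *Adh1* at 53.5 ± 2.14, *Aldh1a7* at 18.3 ± 1.79 and *Aldh1l1* at 15.6 ± 0.430 CPM per kb. *Adh4*, at 5.49 ± 0.281, *Aldh8a1*, at 1.18 ± 0.172, and *Adh7*, at 0.663 ± 0.120 CPM per kb, closed the list. Apart from *Aldh3a2* and *Aldh2*, no WT range of a gene overlapped that of the next in the order. In WDR6-WKO cells *Aldh3a2* stood at 60.0 ± 0.244 CPM per kb, below *Aldh2* at 88.5 ± 16.4 and *Adh5* at 78.1 ± 5.41 CPM per kb.

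**Figure D1:**
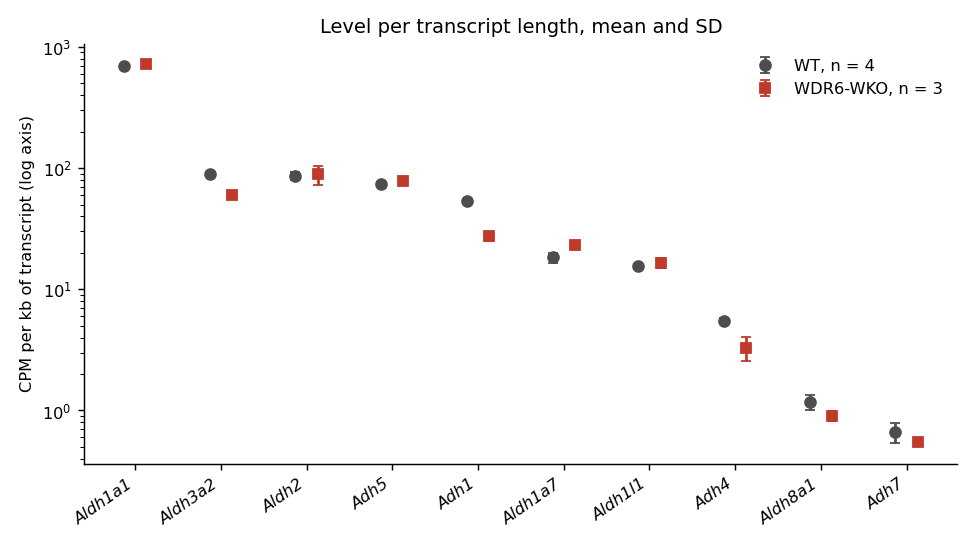
Level of each of the 10 genes in CPM per kb of transcript on a log axis, as mean and s.d. of 4 WT (circles) and 3 WDR6-WKO libraries (squares), with genes in the order of their WT level. *Aldh1a1* lies 7.78 times above the next gene in WT, and the WDR6-WKO mean of *Aldh3a2* lies below those of *Aldh2* and *Adh5*.

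The 4 ADH genes listed above lie with *Adh6a* and *Adh6b* in 1 cluster on mouse chromosome 3 (GRCm38), chr3:138217760-138455499, in the order *Adh7*, *Adh1*, *Adh6a*, *Adh6b*, *Adh4* and *Adh5*, all on the plus strand. *Adh6a* and *Adh6b* had no row among the read counts, so no level can be given for them. The coding sequences of the 4 measured genes are 61.63 to 68.72% identical in pairwise alignment, and they share at most 0.28% of their 50-base words with any other transcript. Because the 4 genes differ in level within 1 cluster, 120 bases upstream of the start of *Adh1*, *Adh4* and *Adh5* that lie in no annotated exon of the gene are shown 5′ to 3′ on the plus strand (RefSeq, GRCm38.p6), at chr3:138277374-138277493, chr3:138415346-138415465 and chr3:138442973-138443092. Capitals mark the CCAAT box and the GC box GGGCGG, on either strand.
Adh1: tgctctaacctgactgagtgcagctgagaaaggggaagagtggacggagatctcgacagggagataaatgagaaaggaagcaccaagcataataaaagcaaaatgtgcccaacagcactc
Adh4: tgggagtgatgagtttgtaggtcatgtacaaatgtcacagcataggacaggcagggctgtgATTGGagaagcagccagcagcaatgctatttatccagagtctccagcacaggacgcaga
Adh5: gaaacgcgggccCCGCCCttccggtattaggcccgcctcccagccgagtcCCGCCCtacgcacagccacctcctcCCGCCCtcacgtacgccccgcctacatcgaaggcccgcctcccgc
The stretch of *Adh5* has a GC content of 73.3% and holds 3 GC boxes, that of *Adh4* holds 1 CCAAT box, and that of *Adh1* has a GC content of 47.5% and none of the marked letters. The stretch of *Adh1* ends 92 bases and that of *Adh4* 32 bases before the RefSeq start, because GENCODE transcripts begin between them, and that of *Adh1* lies in an intron of a longer non-coding transcript.

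*Adh1*, the class I enzyme that does most of the ethanol oxidation in liver and also oxidizes retinol, stood at 80.9, 77.0, 83.8 and 77.5 CPM in WT replicates 1 to 4. In WDR6-WKO replicates 1 to 3 it stood at 43.2, 41.9 and 37.3 CPM. The lowest WT library lay far above the highest WDR6-WKO library, and the means were 79.8 ± 3.19 and 40.8 ± 3.12 CPM. The log2 fold change (WDR6-WKO minus WT) was −0.97 (s.e. 0.06), a level 48.9% below that of WT. These values rest on 667 to 1605 reads per library. A difference of between −1.01 and −0.91 was found under every other scaling, filter and tool tried and with any 1 library left out.

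*Adh4*, the class II enzyme, which prefers longer alcohols and retinol over ethanol, was far scarcer. It stood at 7.01, 7.65, 7.39 and 6.83 CPM in WT replicates 1 to 4 and at 5.32, 4.21 and 3.46 CPM in WDR6-WKO replicates 1 to 3. The groups again did not overlap, but the WDR6-WKO libraries were spread more widely, with a coefficient of variation of 21.6% against 5.12% in WT. The log2 fold change was −0.72 (s.e. 0.15), from 62 to 146 reads per library, and it lay between −0.91 and −0.60 with any 1 library left out.

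*Adh5* encodes the class III enzyme, a glutathione-dependent formaldehyde dehydrogenase that also reduces S-nitrosoglutathione and is made in nearly every tissue. It had the highest length-scaled level of the ADH genes in WT, and its CPM values were 121, 116, 118 and 123 CPM in WT and 122, 135 and 119 CPM in WDR6-WKO. The ranges overlapped and the log2 fold change was 0.07 (s.e. 0.05). *Adh7*, the class IV retinol-oxidizing enzyme known mainly from the epithelium of the upper digestive tract, was barely present, at 1.86 to 2.76 CPM in WT and 1.79 to 1.94 CPM in WDR6-WKO. Its log2 fold change of −0.28 (s.e. 0.21) rested on 34 to 55 reads per library. Along the chromosome, the log2 fold changes were thus −0.28, −0.97, −0.72 and 0.07 for *Adh7*, *Adh1*, *Adh4* and *Adh5*, with the last 2 being direct neighbours.

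**Figure D2:**
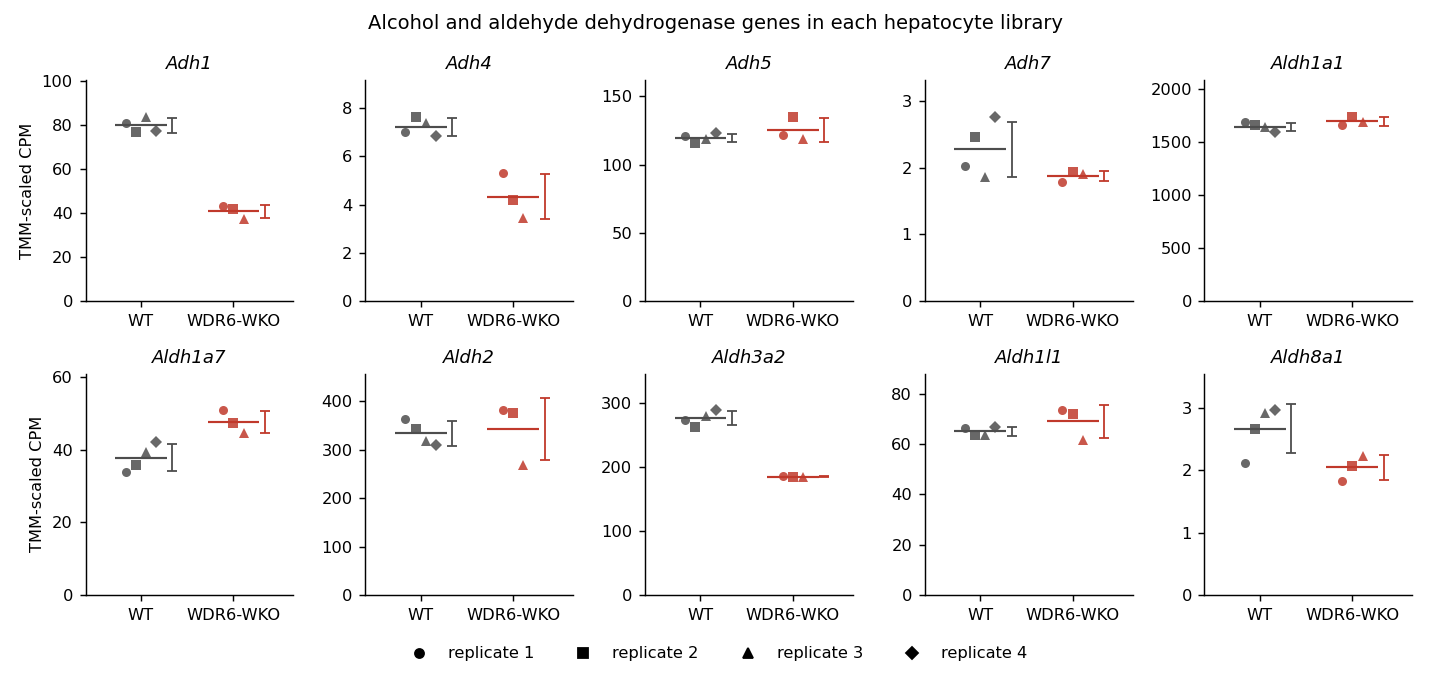
TMM-scaled CPM of each of the 10 genes in every library, with WT in grey and WDR6-WKO in red, marker shapes for replicate numbers, a line for the mean and a bar for the s.d. (n = 4 and n = 3); each panel has its own axis from 0. The groups are separate for *Adh1*, *Adh4*, *Aldh3a2* and *Aldh1a7* and overlap for the others.

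*Aldh1a1* encodes the cytosolic aldehyde dehydrogenase that turns retinaldehyde into retinoic acid and also takes acetaldehyde and lipid aldehydes. It stood at 1682, 1656, 1639 and 1593 CPM in WT and 1654, 1736 and 1683 CPM in WDR6-WKO, a log2 fold change of 0.04 (s.e. 0.04). *Aldh1a7*, its rodent paralog, stood at 33.8, 35.8, 39.4 and 42.2 CPM in WT and at 50.7, 47.2 and 44.6 CPM in WDR6-WKO. The libraries of *Aldh1a7* did not overlap between genotypes, though the nearest ones, WT replicate 4 and WDR6-WKO replicate 3, were close. Its log2 fold change was 0.33 (s.e. 0.08), from 671 to 1221 reads per library.

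The paralogs are neighbours on chromosome 19 (GRCm38), *Aldh1a1* at chr19:20492715-20643465 on the plus strand and *Aldh1a7* at chr19:20692953-20727562 on the minus strand. Their coding sequences of 1503 bases are 91.62% identical, with 126 mismatches, and 6.54% of the 50-base words of *Aldh1a1* and 7.49% of those of *Aldh1a7* occur in the other transcript. Reads could be assigned to the wrong paralog where these words are shared, so the level of *Aldh1a7*, the far rarer of the pair, is less certain than its standard error. The first 90 coding bases of both (GENCODE M21) are shown to give an impression of this likeness, with the 5 mismatches in capitals.
Aldh1a1: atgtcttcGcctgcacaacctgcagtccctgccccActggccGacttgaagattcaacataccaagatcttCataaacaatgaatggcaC
Aldh1a7: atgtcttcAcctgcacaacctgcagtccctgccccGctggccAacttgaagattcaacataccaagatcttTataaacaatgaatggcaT

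*Aldh2*, the mitochondrial enzyme that removes most of the acetaldehyde made from ethanol, stood at 364, 342, 318 and 309 CPM in WT. In WDR6-WKO it stood at 381 and 377 CPM in replicates 1 and 2 but at 269 CPM in replicate 3, above and below every WT library. The log2 fold change was 0.04 (s.e. 0.13), the value without WDR6-WKO replicate 3 was 0.18, and it was −0.05 without WDR6-WKO replicate 1, −0.04 without WDR6-WKO replicate 2 and −0.01 with the replicate number as a block, so the sign is not settled.

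*Aldh3a2* encodes fatty aldehyde dehydrogenase, a membrane enzyme that oxidizes long-chain aldehydes from fatty alcohols, plasmalogens, sphingolipids and branched lipids. It stood at 275, 263, 280.3 and 289 CPM in WT and at 186, 185 and 185 CPM in WDR6-WKO, so that the WDR6-WKO libraries differed from each other by a coefficient of variation of only 0.406%. Its log2 fold change was −0.58 (s.e. 0.05), a level 33.0% below that of WT, from 3314 to 5755 reads per library. All other settings, including each library left out, gave between −0.60 and −0.55. The gene lies on the minus strand of chromosome 11, chr11:61223417-61267464, and shares no 50-base word with another gene.

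*Aldh1l1*, the cytosolic 10-formyltetrahydrofolate dehydrogenase, which oxidizes one-carbon units to carbon dioxide, stood at 66.5, 63.5, 63.5 and 66.7 CPM in WT and 73.3, 72.1 and 61.6 CPM in WDR6-WKO. As with *Aldh2*, replicates 1 and 2 of WDR6-WKO lay above and replicate 3 below every WT library. The log2 fold change was 0.09 (s.e. 0.06), or 0.16 without WDR6-WKO replicate 3. *Aldh8a1*, which oxidizes 2-aminomuconic semialdehyde in tryptophan breakdown, was among the rarest of the 10, at 2.12, 2.67, 2.92 and 2.96 CPM in WT and 1.83, 2.08 and 2.23 CPM in WDR6-WKO. WT replicate 1 lay within the WDR6-WKO range, and the log2 fold change of −0.39 (s.e. 0.20) rested on 40 to 59 reads per library.

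Of the 10 genes, 4 were called (edgeR, adjusted p under 0.05), as were 12.8% of all genes tested. The called genes were *Adh1*, *Adh4* and *Aldh3a2*, lower, where 6.18% of all genes were, and *Aldh1a7*, higher, where 6.65% were. The same 4 were those whose CPM ranges did not overlap, which held for 23.5% of all genes. Since the genes were chosen on this contrast, nothing is read from these counts. The median log2 fold change of the 10 was −0.12, and that of all genes tested was 0.0051. Without WDR6-WKO replicate 3, 6 were called, where 28.6% of all genes were, with *Aldh2* and *Aldh1l1* added as higher. Without WDR6-WKO replicate 1, 3 were called, where 7.98% of all genes were, with *Aldh1a7* lost at a log2 fold change of 0.28. The study's thresholds (a log2 fold change of 0.35 or more in either direction and an unadjusted p under 0.05) were also put on the edgeR values. The study itself used DESeq2, so these are not its own calls. They took in 10.4% of all genes tested and 3 of the 10, all lower, again without *Aldh1a7*. Of the 12 hepatocyte markers, 5 were called lower, none was called higher and 7 did not pass the test. The 5 were *Cps1* of the urea cycle (−0.69, s.e. 0.09, adjusted p = 0.000114), *Apoa1* (−0.69, s.e. 0.13, adjusted p = 0.0160), *Fgb* (−0.45, s.e. 0.06, adjusted p = 0.000143), *Asgr1* (−0.43) and *Hnf4a* (−0.27). The 7, among them *Alb* and *Ttr*, ranged from −0.88 for *Tat* to 0.24 for *Serpina1c*. *Ass1*, also of the urea cycle, stood at −0.02. The part of these markers in the levels of the 10 genes was not tested. The exons of *Adh1*, *Adh7*, *Aldh1l1* and *Aldh2* overlap short stretches of non-coding models on the other strand, from which unstranded reads cannot be told apart.

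**Figure D3:**
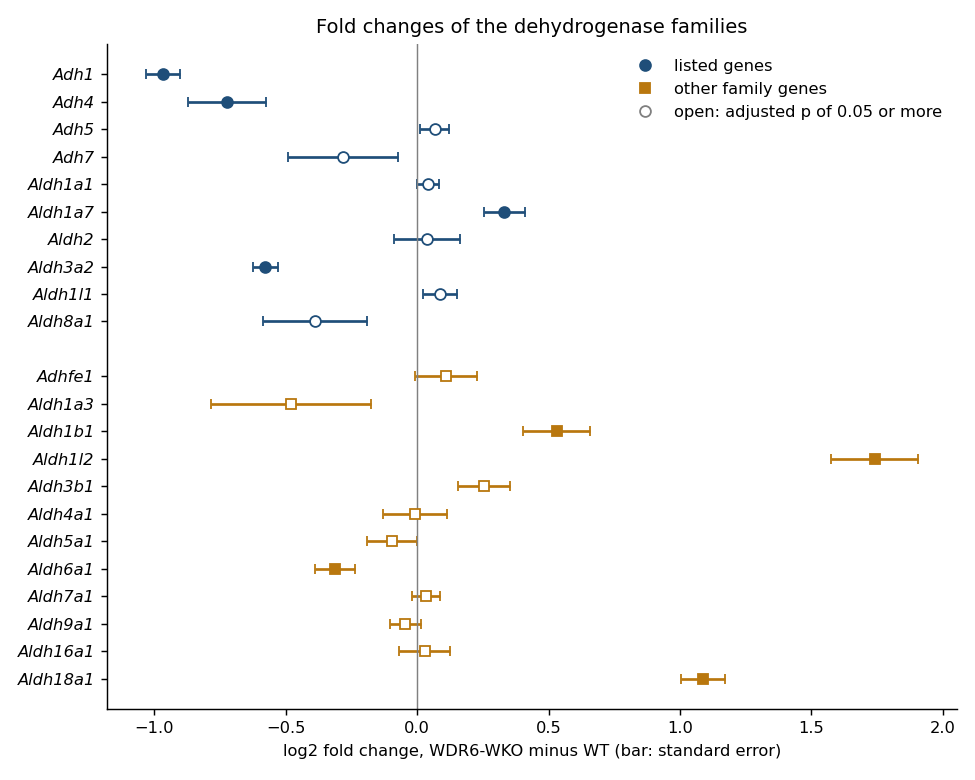
Log2 fold change (WDR6-WKO minus WT) with its standard error for the 10 genes (circles) and the 12 other genes of the families in the table (squares), filled where the adjusted p was under 0.05. Values run from −0.97 for *Adh1* to 1.74 for *Aldh1l2*.

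The RefSeq promoter windows, from 250 bases before to 50 after the start, were matched for 9 of the 10 genes, all but *Aldh2*. The letters of 5 short motifs were looked up on both strands, with positions counted from the RefSeq start. The E-box CACGTG was in the windows of *Adh1*, at position +5, and *Aldh3a2*, at −30, which makes 2 of 9 where 9.65% of 13528 windows of genes tested hold it. CCAAT was in 5 of 9 (37.4% of all windows), GGGCGG in 3 of 9 (59.7%), TATAAA in 2 of 9 (7.90%) and TGATGNAA, an amino acid response element core, in none (2.34%). A match is a description of the window and not a binding site. The stretches upstream of the RefSeq starts of *Aldh3a2* (52 bases) and *Aldh1a7* (120 bases), the called ALDH genes, are shown 5′ to 3′ on the minus strand (RefSeq, GRCm38.p6), at chr11:61267187-61267238 and chr19:20727563-20727682, with capitals for the CCAAT box, the GC box and the E-box.
Aldh3a2: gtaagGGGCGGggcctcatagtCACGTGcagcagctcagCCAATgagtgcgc
Aldh1a7: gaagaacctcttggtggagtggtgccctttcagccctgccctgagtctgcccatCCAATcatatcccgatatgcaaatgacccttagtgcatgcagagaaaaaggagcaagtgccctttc
The stretch of *Aldh3a2* holds 1 of each and has a GC content of 63.5%. It lies inside the gene span given above, and is shorter because non-coding transcripts of the gene begin further upstream and have an exon just before it. That of *Aldh1a7* holds 1 CCAAT box and has 51.7%.

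Outside the 10 genes, 12 further genes of the families were in the table, and here the test of edgeR with Benjamini-Hochberg adjustment over 14779 genes applies. Of these, 3 rose, 1 fell and 8 did not pass the test, where 6.65% of all genes tested rose and 6.18% fell. Their median log2 fold change was 0.03 (0.0051 for all genes tested). *Aldh1l2*, the mitochondrial counterpart of *Aldh1l1*, rose from 3.16 ± 0.459 CPM (n = 4) in WT to 10.6 ± 2.26 CPM (n = 3) in WDR6-WKO, a log2 fold change of 1.74 (s.e. 0.16, adjusted p = 4.32e-06). *Aldh18a1*, the synthase of pyrroline-5-carboxylate on the way from glutamate to proline, rose from 33.8 ± 0.533 to 71.9 ± 10.6 CPM, by 1.09 (s.e. 0.08, adjusted p = 7.81e-07). By library it stood at 33.9, 34.5, 33.7 and 33.2 CPM in WT and 59.7, 79.1 and 77.0 CPM in WDR6-WKO, with no overlap. Values of *Aldh1l2* were 2.77, 3.82, 2.98 and 3.06 CPM in WT and 8.19, 12.7 and 10.9 CPM in WDR6-WKO. Its exons overlap those of *D10Wsu102e* on the other strand, and the library kit does not mark strand, so reads of the overlap cannot be told apart. Every alternative kept both genes past the threshold.

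*Aldh1b1*, a mitochondrial enzyme that takes acetaldehyde, rose from 6.41 ± 0.794 to 9.28 ± 0.938 CPM (log2 fold change 0.53, s.e. 0.13, edgeR adjusted p = 0.0128), but not without WDR6-WKO replicate 2 (0.44, adjusted p = 0.0827). *Aldh6a1*, the methylmalonate semialdehyde dehydrogenase of valine and thymine breakdown, fell from 34.8 ± 1.84 to 28.04 ± 2.27 CPM (−0.31, s.e. 0.08, adjusted p = 0.0128), but not without WT replicate 3 (−0.28, adjusted p = 0.0540) or WDR6-WKO replicate 2 (−0.26, adjusted p = 0.0779). The 8 others ranged from −0.48 (s.e. 0.30) for the scarce *Aldh1a3* to 0.26 (s.e. 0.10, adjusted p = 0.102) for *Aldh3b1*, which passed the test without WDR6-WKO replicate 3 (0.34, adjusted p = 0.00681). *Adhfe1* (0.11), *Aldh5a1* (−0.10), *Aldh7a1* (0.03), *Aldh9a1* (−0.04), *Aldh16a1* (0.03) and *Aldh4a1* (−0.01) lay between. Of the last, 45.0% of the 50-base words recur in the overlapping gene model *Gm21969*, so its level is uncertain. Exons of *Aldh6a1* and *Aldh16a1* overlap those of the coding genes *Bbof1* and *Pih1d1* on the other strand, where reads cannot be told apart either.

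*Aldh1l1* and *Aldh1l2* draw on the folate pool that carries one-carbon units, and 26 other genes of this pathway were tested. This list and those that follow were chosen with earlier results of these data known, so their counts are no independent evidence of a direction. Of the 26 genes, 7 rose, 2 fell and 17 did not pass, where 6.65% of all genes tested rose and 6.18% fell. The median log2 fold change was 0.11 (0.0051 for all genes tested). *Mthfd2*, the mitochondrial methylenetetrahydrofolate dehydrogenase, rose most, from 31.3 ± 1.26 to 80.1 ± 14.0 CPM (1.35, s.e. 0.10, edgeR adjusted p = 1.04e-06). *Gldc*, the glycine decarboxylase that feeds the pool, rose from 219 ± 3.68 to 303 ± 16.2 CPM (0.47, s.e. 0.05, adjusted p = 9.00e-06), and *Mthfd1l*, the mitochondrial formate-releasing synthetase, by 0.36 (s.e. 0.06, adjusted p = 0.000907). The genes that fell were *Ftcd*, which brings in one-carbon units from histidine (19.2 ± 2.56 to 10.4 ± 2.32 CPM, −0.87, s.e. 0.14, adjusted p = 0.00110), and *Amt*, the aminomethyltransferase that works with *Gldc* (10.8 ± 1.88 to 5.95 ± 0.802 CPM, −0.85, s.e. 0.15, adjusted p = 0.00132). *Slc19a1*, *Shmt2* and *Atic* rose as well, of which *Shmt2* did not pass without WDR6-WKO replicate 3 (0.56, adjusted p = 0.0615) and *Atic* did not with the replicate number as a block (0.14, adjusted p = 0.103), with median-of-ratios factors, with limma-voom or without any 1 library other than WDR6-WKO replicate 3.

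*Aldh8a1* sits in the kynurenine pathway, which breaks down tryptophan and leads to NAD. A list of 12 other genes in and around this pathway was tested. Of these, 6 fell, none rose and 6 did not pass, where 6.18% of all genes tested fell and 6.65% rose. The median was −0.25 (0.0051 for all genes tested). *Acmsd*, whose product turns the preceding intermediate into the substrate of the *Aldh8a1* enzyme, fell from 51.6 ± 3.66 to 29.7 ± 4.36 CPM (−0.80, s.e. 0.09, edgeR adjusted p = 3.10e-05). *Tdo2*, the first enzyme of the pathway, fell from 12.9 ± 0.647 to 8.03 ± 0.452 CPM (−0.69, s.e. 0.10, adjusted p = 0.000310). *Kyat3*, a kynurenine aminotransferase, fell by 0.37 (s.e. 0.07, adjusted p = 0.00136). *Ddc*, the aromatic amino acid decarboxylase, which is on the list but is no step from tryptophan to NAD, fell by 0.36 (s.e. 0.07, adjusted p = 0.00318). *Ido2* and *Qprt* were the other genes that fell, the latter not without WT replicate 3 (−0.26, adjusted p = 0.0805), WT replicate 4 (−0.30, adjusted p = 0.0664) or WDR6-WKO replicate 2 (−0.31, adjusted p = 0.0645).

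**Figure D4:**
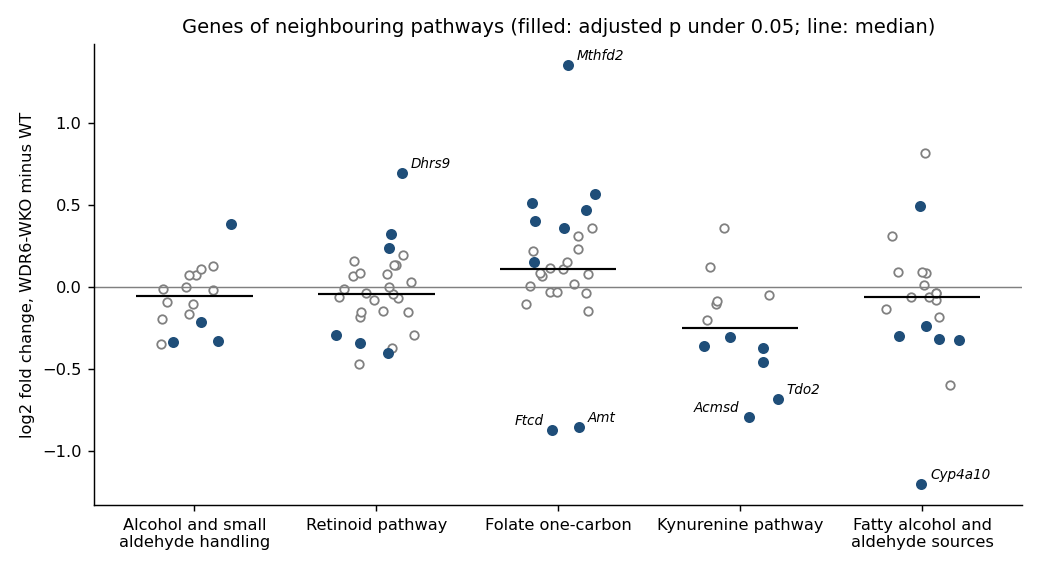
Log2 fold change (WDR6-WKO minus WT) of the genes of 5 lists around the 10 enzymes, each point 1 gene, filled where the adjusted p was under 0.05, with a line at the list's median. *Mthfd2* at 1.35 and *Cyp4a10* at −1.20 are the extremes of the called genes, and the 6 called genes of the kynurenine list are all below 0.

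*Aldh3a2* receives aldehydes from fatty alcohols, sphingosine 1-phosphate, phytol and omega-oxidized fatty acids, and 20 genes of these routes and of neighbouring lipid oxidation were tested. Of these, 5 fell, 1 rose and 14 did not pass, where 6.18% of all genes tested fell and 6.65% rose. The median was −0.06 (0.0051 for all genes tested). *Ephx2*, the soluble epoxide hydrolase, fell from 82.9 ± 2.48 to 66.5 ± 1.09 CPM (−0.32, s.e. 0.05, edgeR adjusted p = 0.000908), *Cyp4v3*, an omega-hydroxylase of fatty acids, by 0.24 (s.e. 0.05, adjusted p = 0.00413) and *Phyh*, the phytanoyl-CoA hydroxylase, by 0.30 (s.e. 0.06, adjusted p = 0.00583). *Sphk1*, a sphingosine kinase, rose from 16.7 ± 2.17 to 23.4 ± 3.41 CPM (0.50, s.e. 0.11, adjusted p = 0.00988), but not without WDR6-WKO replicate 1 (0.42, adjusted p = 0.0643). *Cyp4a10* (−1.20, s.e. 0.33, adjusted p = 0.0240) and *Cyp4f13* (−0.32, s.e. 0.10, adjusted p = 0.0445), further omega-hydroxylases, were the least firm. *Cyp4a10* missed the threshold without WT replicate 1 or 2 or without WDR6-WKO replicate 1 or 2, with an adjusted p of up to 0.118. Its log2 fold change in these settings was −1.11 to −1.04. *Cyp4f13* missed the threshold with the replicate block (adjusted p = 0.0652), with limma-voom, with library sizes alone and without any library other than WDR6-WKO replicate 1. In these settings its log2 fold change was −0.34 to −0.22.

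Of 16 other genes of ethanol, aldehyde and acetate handling, 3 fell, 1 rose and 12 did not pass the test. Over all genes tested, 6.18% fell and 6.65% rose. The median of the list was −0.05 (0.0051 for all genes tested). *Cyp2e1*, the microsomal ethanol oxidase, stood at 17.95 ± 1.35 CPM in WT and 14.2 ± 0.789 CPM in WDR6-WKO (−0.34, s.e. 0.09, edgeR adjusted p = 0.0227). It did not pass without WT replicate 2 or 3 or WDR6-WKO replicate 1 or 2, with an adjusted p of up to 0.105. Its log2 fold change in these settings was −0.35 to −0.29. *Cat*, catalase, a further oxidant of ethanol, fell from 764 ± 25.2 to 659 ± 22.7 CPM (−0.21, s.e. 0.05, adjusted p = 0.00625), and *Aox1*, an aldehyde oxidase, from 74.2 ± 3.34 to 59.0 ± 6.29 CPM (−0.33, s.e. 0.07, adjusted p = 0.00579). *Got1*, the cytosolic aspartate aminotransferase of the shuttle that reoxidizes NADH, rose from 122 ± 3.47 to 159 ± 8.09 CPM (0.38, s.e. 0.05, adjusted p = 0.000127).

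Of 28 further genes of retinoid transport, conversion and signalling, which *Adh1*, *Adh7* and *Aldh1a1* serve, 3 rose, 3 fell and 22 did not pass. Over all genes tested, 6.65% rose and 6.18% fell. The median of the list was −0.04 (0.0051 for all genes tested). *Dhrs9*, a retinol dehydrogenase, rose from 61.5 ± 3.94 to 99.6 ± 15.9 CPM (0.69, s.e. 0.09, edgeR adjusted p = 0.000197), and *Bco1*, which cleaves beta-carotene, by 0.24 (s.e. 0.06, adjusted p = 0.0128), though not without WDR6-WKO replicate 1 (0.20, adjusted p = 0.0724). *Cyp26b1*, which clears retinoic acid, fell from 90.1 ± 5.56 to 71.1 ± 3.53 CPM (−0.34, s.e. 0.06, adjusted p = 0.00175), and *Dhrs3*, a retinaldehyde reductase, by 0.29 (s.e. 0.07, adjusted p = 0.0104). *Rarres1* had a log2 fold change of −0.40 (s.e. 0.10, adjusted p = 0.0163). It lost its call without WT replicate 1 or WDR6-WKO replicate 1, at a log2 fold change of −0.34 in either setting and an adjusted p of up to 0.0878.

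The genes whose pattern over the 7 libraries came closest to that of *Adh1* were named by the root mean square difference of their log2 CPM relative to the WT mean, among 9327 genes with a mean of at least 10 CPM. This difference was 0.0747 for *Ahsg*, which encodes the plasma protein fetuin-A, 0.0963 for *Mup12*, a major urinary protein, 0.107 for *Erbb3*, a receptor of the epidermal growth factor receptor family, 0.110 for *Sult1a1*, a sulfotransferase, and 0.118 for *Apom*, an apolipoprotein. *Ahsg* stood at 1620 ± 127 CPM in WT and 829 ± 68.2 CPM in WDR6-WKO, a log2 fold change of −0.97 (s.e. 0.07) beside the −0.97 of *Adh1*. *Mup12* belongs to a family of near-identical genes among which reads cannot be assigned with certainty. These genes were picked for their likeness to *Adh1* on the same libraries, and no test is attached to it.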

How the data were processed

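Cultured primary hepatocytes gave 4 WT and 3 WDR6-WKO samples, whose RNA was made into libraries with the NEBNext Ultra kit, which does not mark strand, and sequenced on an Illumina HiSeq. The authors aligned the reads to mm10 (GRCm38) with Bowtie2 2.2.3 and deposited raw read counts per gene symbol; the counting tool, its annotation and strand setting are not given in the sources used here. The table holds no row with a total under 50, and 21 rows carry a date in place of a symbol. These rows stayed in the fit unnamed.

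Counts were scaled by TMM, filtered with filterByExpr and fitted with edgeR 4.0.16 (R 4.3.3) by genotype alone, using the robust quasi-likelihood test with Benjamini-Hochberg adjustment over the 14779 genes tested. A gene was called at an adjusted p under 0.05. The standard error of a log2 fold change is its size over the root of F. The common biological coefficient of variation was 7.40%, and counting error dominates for genes with few reads. The fit was tested on simulated data.

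The 10 genes, the pathway lists and the marker lists were chosen with earlier results of these data known. Named were the 10 genes, the other family genes, *Wdr6*, up to 4 called genes of each pathway list by smallest p plus those counted among 5 or fewer, called marker genes, and the 5 genes most like *Adh1*. *Alb*, *Ttr*, *Tat*, *Ass1*, *Serpina1c* and *Timd4* among the markers, and the remaining called genes of the folate, kynurenine and fatty aldehyde lists, were named after their values were seen. The likeness used log2(CPM + 0.1). Some called genes of the folate and retinoid lists are counted but not reported here by name.

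Alternatives were DESeq2 1.42.0, its size factors within edgeR, unscaled library sizes, all genes unfiltered, only genes with 10 or more counts in each library, limma-voom (limma 3.58.1), the study's thresholds (log2 fold change of 0.35 or more in either direction, unadjusted p under 0.05), the replicate number as a block, and each library left out. The study's thresholds were applied here to edgeR values, whereas the study applied them to DESeq2 results. Libraries with the same number come from mice of different genotype. Over 9342 genes their deviations from the group means correlated at 0.198, 0.104 and 0.169 for numbers 1, 2 and 3, all over 0.1. The number was therefore tried as a block. WDR6-WKO replicate 2 correlated more with WT replicate 1 (0.323), and WDR6-WKO replicate 3 more with WT replicate 4 (0.191) and at −0.355 with WT replicate 1. The labels name no shared mouse or batch, so it is not known whether the numbers pair the libraries. WT replicate 4 has no partner and adds nothing to the genotype difference under the block. The main fit does not use the block. Gene positions, transcript lengths and coding sequences came from GENCODE M21, promoter windows from RefSeq (GRCm38.p6).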

Additional observations from a re-analysis of the deposited data

Results flagged for a closer look

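*Aldh16a1*, a family gene outside the 10, had 1 WT library far from the others. WT replicate 1 stood at 25.1 CPM and the next WT library at 21.4 CPM, a gap that is 0.851 of the WT range, above Dixon's 95% critical value for 4 samples. The same check was made for 22 genes, and chance alone marks about 1 group in 20.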

How the results depend on the processing

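The log2 fold changes of *Adh1*, *Adh4* and *Aldh3a2* stayed below 0 and that of *Aldh1a7* above 0 in all 14 alternatives. The number of genes called over the whole table was 1897 and ranged from 1032 (without WDR6-WKO replicate 2) to 4233 (without WDR6-WKO replicate 3) with 1 library left out; without WT replicate 3, WT replicate 4 or WDR6-WKO replicate 1 it was 1210, 1182 and 1180. With library sizes alone, 1212 of 1908 called genes were higher (63.5%), against 983 of 1897 (51.8%) with TMM. The other family genes called numbered 2 (without WDR6-WKO replicate 2) to 5 (without WDR6-WKO replicate 3). Under the study's thresholds on the edgeR values, which took in 10.4% of all genes tested, 1 gene of the ethanol and aldehyde list and 3 of the fatty aldehyde list were called, where 4 and 6 had been. The direction shifted from 1 higher and 3 lower to 1 higher and 0 lower, and from 1 higher and 5 lower to 2 higher and 1 lower. *Aldh2*, *Aldh4a1*, *Aldh7a1* and *Aldh16a1*, which lay near 0, changed sign, *Aldh2* without WDR6-WKO replicate 1 or 2 and with the block. *Aldh4a1* gave 0.018 with library sizes alone, 0.0064 with limma-voom, and, with 1 library left out, from −0.091 (WT replicate 4) to 0.11 (WT replicate 1), being also above 0 without WDR6-WKO replicate 1 (0.0025). *Aldh7a1* gave from −0.0027 without WT replicate 3 to 0.064 without WT replicate 1. *Aldh16a1* gave from −0.049 without WDR6-WKO replicate 1 to 0.12 without WDR6-WKO replicate 3, with −4.3e-05 without WT replicate 3 and −0.0036 without WDR6-WKO replicate 2. The cause was not tested. With the replicate number as a block, 1762 genes were called, of them 4 of the 10 genes and 4 other family genes. Of the called genes of both families and the 5 pathway lists, only *Atic* and *Cyp4f13* lost their call under the block, which was not looked up for single marker genes or the genes like *Adh1*. *Adh7* and *Aldh8a1*, at 34 to 59 reads per library, are too shallow for small differences to be seen.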
